A study of Mus musculus with 16 samples.

Results

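The 42 genes described here encode proteins of the complement and blood coagulation systems that the liver makes and sends into the plasma. They were chosen by name, as the rows whose gene symbol equals 1 of a list of 20 complement and 22 coagulation genes, out of 30199 genes in the table. All 42 were found, and each averaged 10 or more normalized counts across the 16 livers, so all were among the 15263 genes tested. A normalized count is the number of reads of a gene in a liver divided by the size factor the authors computed for that library.

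The livers came from female mice aged 5 months, 4 mice in each of 4 genotypes, with 1 RNA library per mouse. The Ncoa5+/-Tip30+/- mice carried 1 deleted copy of both genes, the Ncoa5+/- mice 1 deleted copy of Ncoa5 alone, the Tip30+/- mice 1 deleted copy of Tip30 alone, and the wild-type mice neither. Ncoa5 is a nuclear receptor coregulator, and Tip30, listed under the symbol Htatip2, is an oxidoreductase-like protein studied in tumour suppression; the study's title concerns a potassium channel and liver cancer in females. All mice were on a standard rodent diet, no drug is named, and the labels give neither the strain nor the cells in which the alleles are deleted. The labels call the tissue mainly hepatocyte.

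Complement is a cascade of plasma proteases and binding proteins that marks and lyses microbes. It is started by antibody through C1, by sugar-binding lectins with their MASP proteases, or by slow turnover of C3 amplified by factor B, and each route ends in cleavage of C3 and then in assembly of the terminal proteins C5b to C9 into a membrane pore. Coagulation is a cascade of plasma proteases, many of which need vitamin K for a modification of their glutamate residues, that ends in thrombin cutting fibrinogen to fibrin; plasmin dissolves the clot, and serpin inhibitors restrain both systems. Hepatocytes are the main source of most of these proteins, while properdin comes mostly from white blood cells.

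Reads assigned to genes numbered 24740706 to 37939978 per library. Htatip2 ran from 837 to 1088 normalized counts in Ncoa5+/-Tip30+/- livers and from 685 to 986 in Tip30+/- livers, below every Ncoa5+/- liver (2066 to 2910.4) and every wild-type liver (1835 to 2209). Ncoa5 did not separate the groups, with 369 to 424 in Ncoa5+/-Tip30+/-, 339 to 411 in Ncoa5+/-, 382 to 449.6 in Tip30+/- and 380.2 to 479.5 in wild-type livers, so the Ncoa5 genotype rests on the labels. Hepatocyte markers, 11 of 12 matched, summed to 2673819.7 to 3375694 normalized counts in Ncoa5+/-Tip30+/- livers and 2870596 to 4089599.6 in wild-type livers. Wild-type mice 1 and 2 and Ncoa5+/- mice 1 and 4 stood apart, with 8.77 to 26.3 normalized counts of the transcriptional repressor Zhx2 against 167 to 438 in the other 12 livers. Several differences from wild type that rest on these 4 livers are also given without them, but ratios and correlations are not. In such bulk samples, fewer cells of a type and less RNA per cell cannot be told apart.

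The promoters of 5 genes are shown because the results turn on them: C3 and Mbl2, the genes that passed the test, and the 3 fibrinogen chain genes, which varied together and were added after their values were seen. Each window is the 250 bases before the RefSeq start in GRCm38.p6, read along the gene. Capitals mark matches, on either strand, to an HNF1 motif (GTTAAT), a C/EBP core (TTGCNNAA) or a STAT palindrome (TTCNNNGAA), binding motifs of hepatocyte and acute phase transcription factors. The C3 window is chr17:57228137-57228386 on the minus strand, with a C/EBP core starting at -45. The Mbl2 window is chr19:30232678-30232927 on the plus strand and holds none of these letters. The Fga window is chr3:83025903-83026152 (plus), the Fgb window chr3:83049864-83050113 (minus) and the Fgg window chr3:83007474-83007723 (plus).
C3: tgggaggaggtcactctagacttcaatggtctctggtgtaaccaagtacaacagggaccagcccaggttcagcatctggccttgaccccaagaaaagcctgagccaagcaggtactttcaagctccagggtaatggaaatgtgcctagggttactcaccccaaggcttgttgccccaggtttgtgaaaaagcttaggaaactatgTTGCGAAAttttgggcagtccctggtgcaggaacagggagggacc
Mbl2: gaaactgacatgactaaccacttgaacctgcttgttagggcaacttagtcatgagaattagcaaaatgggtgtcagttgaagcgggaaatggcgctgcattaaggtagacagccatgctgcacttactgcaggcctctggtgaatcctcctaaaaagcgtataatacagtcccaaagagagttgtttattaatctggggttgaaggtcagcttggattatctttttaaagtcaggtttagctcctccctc
Fga: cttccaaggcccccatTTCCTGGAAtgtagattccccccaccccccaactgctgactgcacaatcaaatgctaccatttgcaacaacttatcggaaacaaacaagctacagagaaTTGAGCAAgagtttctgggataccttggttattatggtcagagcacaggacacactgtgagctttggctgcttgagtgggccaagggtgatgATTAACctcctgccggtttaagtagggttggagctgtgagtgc
Fgb: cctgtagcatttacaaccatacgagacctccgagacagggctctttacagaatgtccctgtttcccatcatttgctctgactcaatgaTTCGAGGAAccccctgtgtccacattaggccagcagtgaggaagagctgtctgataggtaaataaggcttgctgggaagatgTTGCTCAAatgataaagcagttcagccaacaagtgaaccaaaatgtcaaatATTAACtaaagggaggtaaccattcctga
Fgg: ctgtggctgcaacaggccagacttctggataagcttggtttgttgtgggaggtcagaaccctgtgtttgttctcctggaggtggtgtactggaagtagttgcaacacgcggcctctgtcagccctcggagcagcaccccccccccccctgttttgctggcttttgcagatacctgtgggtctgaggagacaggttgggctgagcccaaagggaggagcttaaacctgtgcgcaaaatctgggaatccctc

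Fga and Fgb each held 1 match to all 3 motifs: in Fga the STAT palindrome started at -234, the C/EBP core at -135 and the HNF1 motif at -43, and in Fgb at -162, -80 and -29. Fgg held none. RefSeq windows were found for 32 of the 42 genes, 34 windows in all, because some genes have more than 1 start. The HNF1 motif was in 8 of the 34 windows (23.5%), against 6.43% of all 32851 windows. The C/EBP core was in 9 (26.5%), against 9.56% of all, and the STAT palindrome in 6 (17.6%), against 7.02%. An HNF4 core (CAAAGTCCA) was in none of them and in 0.384% of all. A match describes the letters only and says nothing of binding.

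Most of the 42 genes were among the most abundant of the liver. Per kilobase of exon, 34 of 42 lay at or above percentile 90 of tested genes and 12 at or above percentile 99. C3, the component on which all complement routes converge, had the highest level, 58834 normalized counts per kilobase averaged over the 16 livers. It was followed by Apoh (beta-2-glycoprotein I, 39163), Vtn (vitronectin, 38947) and Fga (fibrinogen alpha chain, 33727). The median of all tested genes was 75.2. The coagulation genes had a median of 6527 per kilobase and the complement genes 1661.

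At the other end, Cfb (factor B, 24.9 per kilobase, percentile 27.4) and C6 (60.0, percentile 45) lay below that median, with C2 (76.9) beside it and Pros1 (protein S) at 232. Several counts carry a counting limit, since neither the counting program nor its use of strand is given in the sources used here. Of the exon bases of Cfb 79.5%, and of C2 42.8%, also belong to the annotated readthrough gene Gm20547 on the same strand. Klkb1 shares 43.2% with Gm45753 on the same strand. Masp2 shares 54.9% with Tardbp and Serpinc1 34.4% with Zbtb37, both on the opposite strand, and without strand the reads of such partners cannot be told apart. C4b and C4a, C1s1 and C1s2, and Kng1 and Kng2 are near-identical copies between which reads may have been split or dropped.

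**Figure D1:**
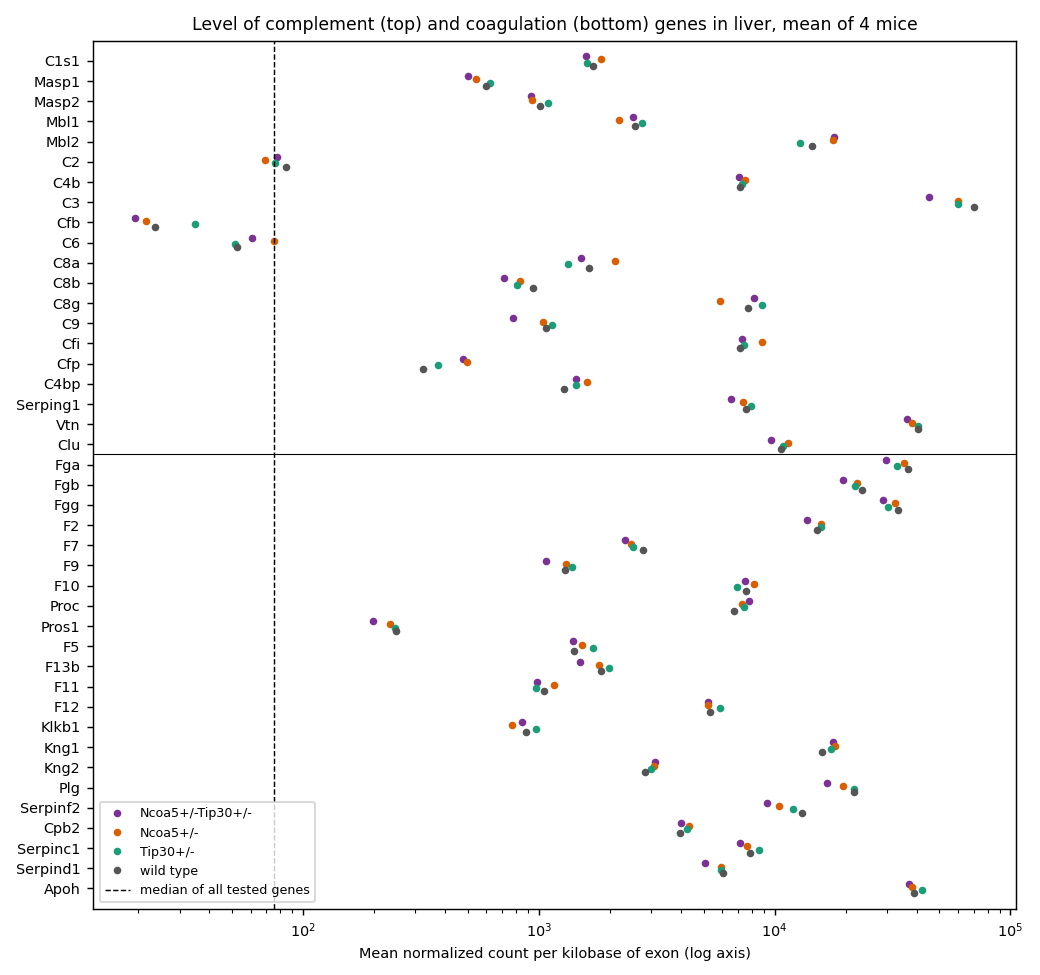
Mean normalized count per kilobase of exon (log axis) of the 20 complement genes (top) and 22 coagulation genes (bottom), 1 point per genotype (mean of 4 mice); the dashed line is the median of all tested genes. The genes span from 24.9 (Cfb) to 58834 (C3), and the 4 genotypes of a gene lie close together beside that span.

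Together the complement genes took 1.4% to 1.94% of all reads in Ncoa5+/-Tip30+/- livers, 1.86% to 2.25% in Ncoa5+/-, 1.68% to 1.99% in Tip30+/- and 1.93% to 2.26% in wild-type livers. The coagulation genes took 2.01% to 2.63% in Ncoa5+/-Tip30+/-, 2.19% to 2.63% in Ncoa5+/-, 2.09% to 2.5% in Tip30+/- and 2.32% to 2.72% in wild-type livers. The ranges of the 4 genotypes overlapped in both lists, the lowest complement shares being those of Ncoa5+/-Tip30+/- mice 2 and 1. Within a genotype the genes varied little: the median residual SD was 0.18 on the log2 scale, from 0.078 (Masp2) to 0.52 (C6), beside 0.257 for all tested genes. Among genes that averaged 1000 normalized counts or more it was 0.176 for the 37 in the lists and 0.181 for all 3888.

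In Ncoa5+/-Tip30+/- livers against wild type, 1 of 42 passed an adjusted p of 0.05 in limma: C3 fell, to 36.5% below the wild-type level, where 2.67% of all tested genes passed in either direction and 1.27% in the lower direction. At an unadjusted p under 0.05 there were 9 of 42, beside 3364 of all 15263 genes. Both shares are near those of all genes. In Ncoa5+/- livers against wild type none of the 42 passed (0.557% of all genes did), with 5 at an unadjusted p under 0.05, beside 10.2% of all. In Tip30+/- livers none passed (0.0131% of all), with 0 at an unadjusted p under 0.05, beside 7.34% of all. DESeq2 on the recovered reads and edgeR also called none of the 42 in these last comparisons. The comparisons share the wild-type mice and are not independent of each other.

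The direction of the small differences was uneven in Ncoa5+/-Tip30+/- livers. There 31 of 42 genes had a log2 difference below 0, 13 of 20 complement and 18 of 22 coagulation genes, with medians of -0.11 and -0.14, while 51.3% of all tested genes lay below 0, with a median of -0.01. Median log2 differences of similar lists there were -0.12 for hepatocyte markers, -0.13 for hepatocyte transcription factors and -0.13 for further coagulation genes. They were -0.06 for further complement genes and -0.06 for acute phase genes. Markers of other cell types had medians from 0.17 to 0.98. In Ncoa5+/- livers 24 of the 42 genes lay below 0 and in Tip30+/- livers 16 of 42. Without the 4 livers low in Zhx2 the counts below 0 in Ncoa5+/-Tip30+/- livers were 13 of 20 and 19 of 22, and without Ncoa5+/-Tip30+/- mouse 2 they were 13 of 20 and 17 of 22. With those livers set aside, Tip30+/- had 11 of 20 and 14 of 22 below 0, where all mice gave 7 of 20 and 9 of 22. Ncoa5+/- then had 12 of 20 and 18 of 22 below 0, where all mice gave 11 of 20 and 13 of 22. Its medians were then -0.14 and -0.16, beside -0.18 and -0.26 in Ncoa5+/-Tip30+/- livers. In that setting the lean below 0 was thus not confined to Ncoa5+/-Tip30+/- livers. The shares of all tested genes below 0 in these smaller sets of mice are not given. For 40, 40 and 41 of the 42 genes in Ncoa5+/-Tip30+/-, Ncoa5+/- and Tip30+/- livers the 95% interval of the change lay within 2-fold either way, and for 29, 34 and 34 within 1.5-fold.

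**Figure D2:**
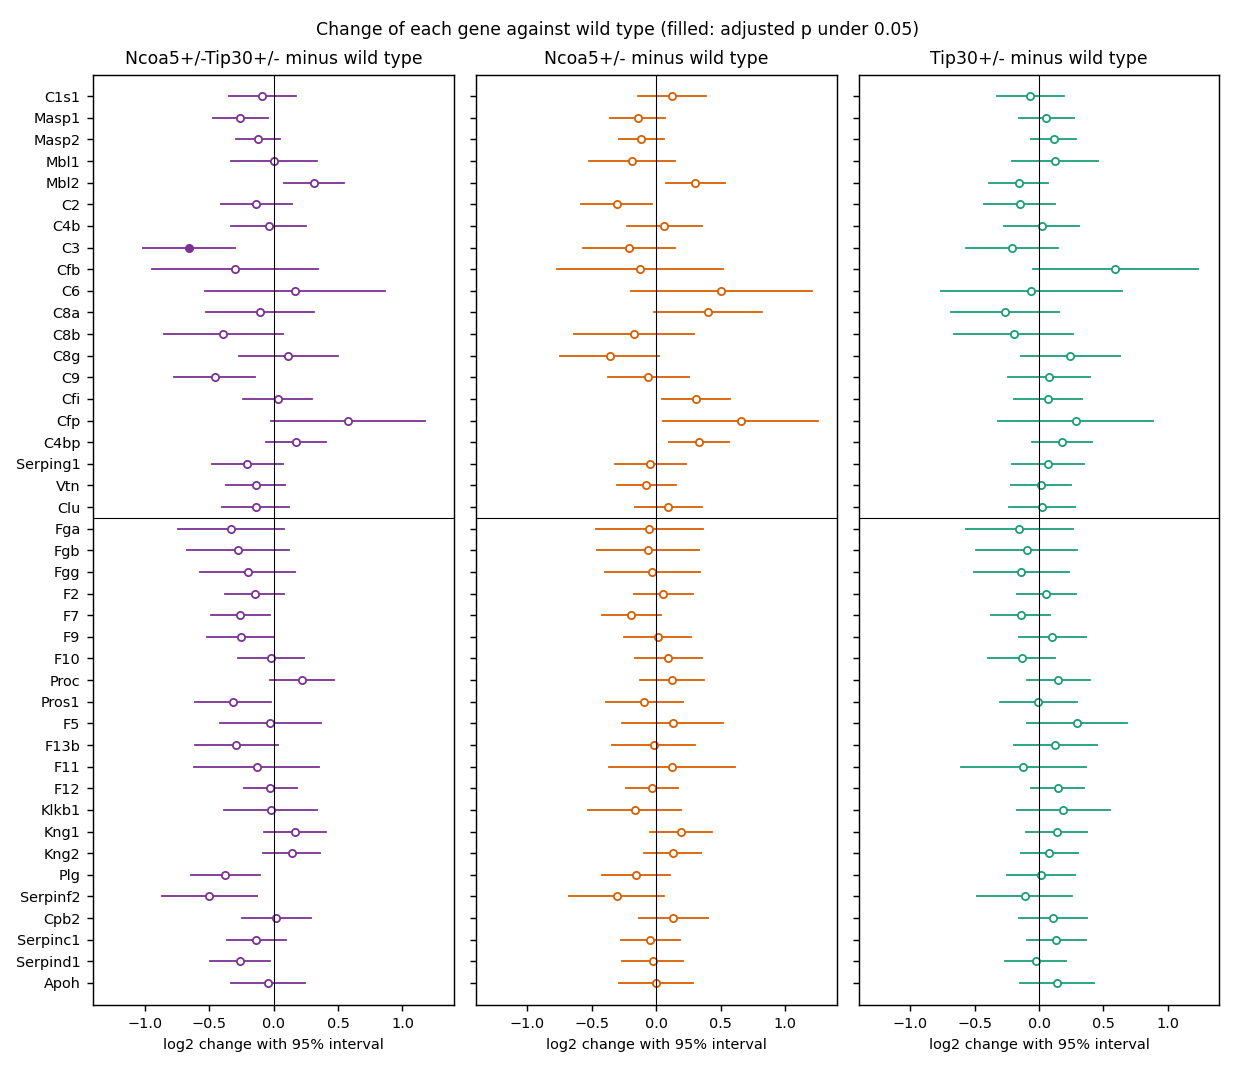
Log2 change of each gene against wild type in Ncoa5+/-Tip30+/-, Ncoa5+/- and Tip30+/- livers with its 95% interval from limma (4 mice per group); complement genes are above the line and coagulation genes below, and a filled point has an adjusted p under 0.05. C3 in Ncoa5+/-Tip30+/- livers is the only filled point, at -0.65.

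In Ncoa5+/-Tip30+/- livers 7 of the 42 genes were lower in all 4 mice than in any wild-type mouse, and 0 were higher: Masp1, C3, C9, F7, Pros1, Plg and Serpind1. Of all tested genes 10.7% did not overlap in either direction and 4.70% were higher, with 916 of 15263 lower. Ncoa5+/- livers had 1 such gene, Mbl2, which was higher (5.67% of all genes in either direction, 3.25% higher). Tip30+/- livers had 2, C2 and F7, which were lower (4.44% and 2.44%). Without the livers low in Zhx2 only 2 wild-type mice remain, and 15 genes were then lower and 1 higher in Ncoa5+/-Tip30+/- livers, where 12.8% and 11.9% of all genes were. The Ncoa5+/- comparison, then 2 mice against 2, had 14 genes lower and 3 higher (19.0% and 19.1% of all genes), and in Tip30+/- livers 5 were lower and 1 higher (7.92% and 7.70%).

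**Figure D3:**
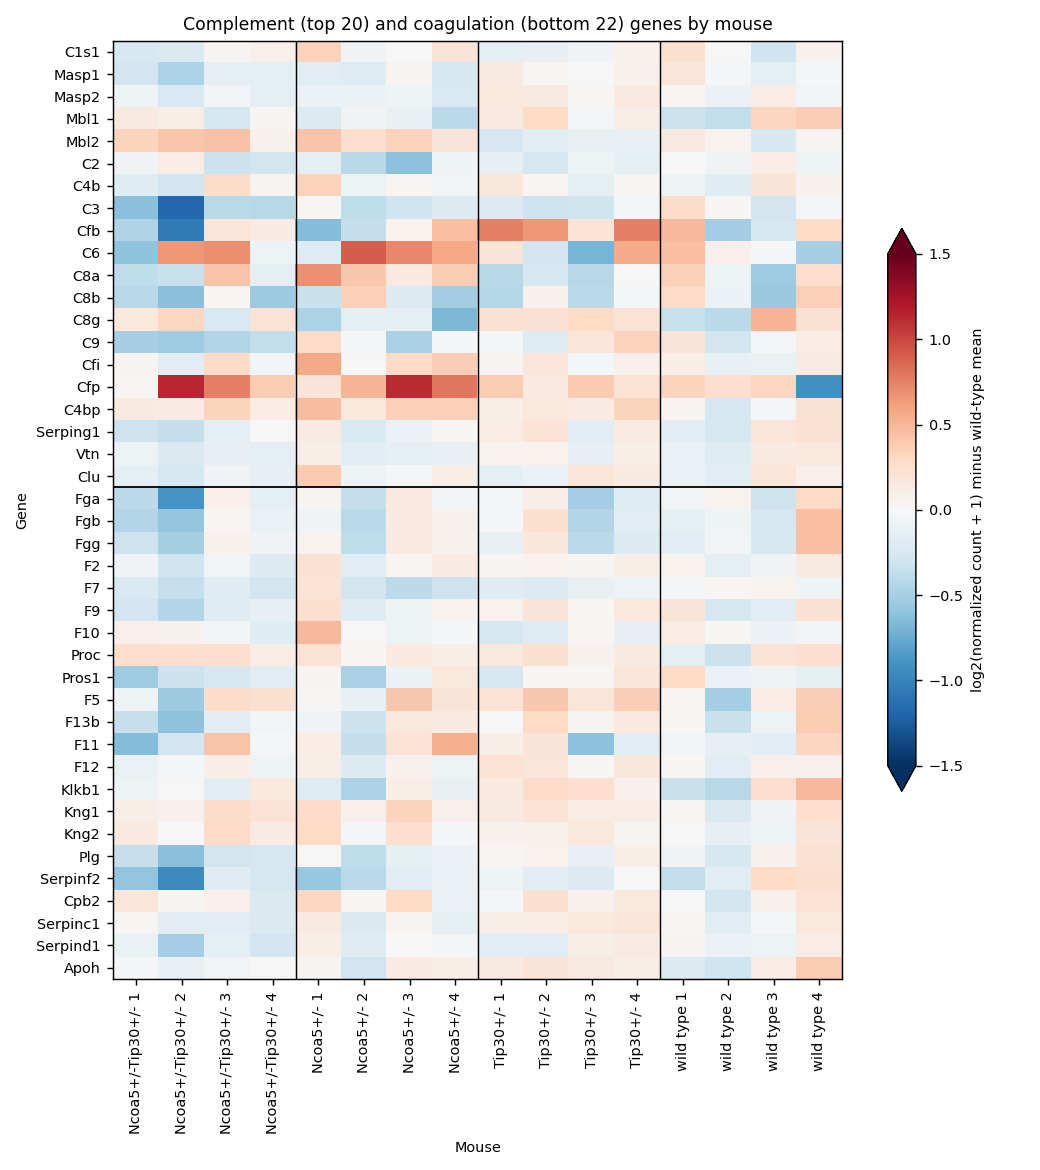
Log2 normalized count plus 1 of each gene in each mouse minus the wild-type mean, from blue (lower) to red (higher), with the complement genes above the line and the coagulation genes below; columns are the 4 mice of Ncoa5+/-Tip30+/-, Ncoa5+/-, Tip30+/- and wild type. C3 is blue in all Ncoa5+/-Tip30+/- mice and Mbl2 red in most mice with the Ncoa5 deletion, while Ncoa5+/-Tip30+/- mouse 2 is blue in many rows.

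The complement genes are taken in the order of the cascade. Mbl2, which encodes mannose-binding lectin C, a sugar-binding starter of the lectin route, had 19679.9, 20807, 21194 and 16331 normalized counts in the 4 Ncoa5+/-Tip30+/- livers and 20973, 18566, 19813 and 17823 in the Ncoa5+/- livers. It had 13136, 13976, 14425 and 14396 in the Tip30+/- livers and 17328, 16149.9, 13223 and 16009 in the wild-type livers. All Ncoa5+/- mice lay above all wild-type mice, 3 of 4 Ncoa5+/-Tip30+/- mice did too, and the Tip30+/- mice lay between 13136 and 14425, within or just below the wild-type range. In the average over both Tip30 backgrounds, the 8 mice with the Ncoa5 deletion against the 8 without it, Mbl2 rose by 0.39 ± 0.08 (SE) on the log2 scale, or 30.9% (adjusted p = 0.00718, limma). This was 1 of 42 genes, where 7.89% of all tested genes passed and 3.94% rose.

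The Mbl2 difference was 0.31 (adjusted p = 0.11) in Ncoa5+/-Tip30+/- and 0.30 (adjusted p = 0.318) in Ncoa5+/- livers against wild type, neither past the threshold, and -0.16 (adjusted p = 0.797) in Tip30+/- livers. The exact permutation test over the 4900 arrangements within backgrounds gave p = 0.000408 for the Ncoa5 deletion (2-sided). This is the smallest p that test can give, reached when the groups separate fully in each background. It is not adjusted for the choice of Mbl2 by the limma result on the same values, so it is not separate support. The call held in all 25 alternative settings, with adjusted p from 2.25e-05 to 0.0251, the last without the livers low in Zhx2. Mice numbered under 4300 in their labels and those above it gave 0.39 and 0.37, with 3 Tip30+/- mice under it and only 1 above it. With the Ncoa5 deletion 1 of 6 cholangiocyte (Spp1, 0.97), 3 of 7 lymphocyte (Cd8a, Nkg7 and Cd3e, 1.25 to 3.15) and 2 of 9 stellate cell markers (Col1a1 and Col3a1, 0.97 and 0.58) also rose, and their part in the Mbl2 result was not tested.

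Mbl1, the paralogue for mannose-binding lectin A, did not share that pattern. It had 4294, 4169.6, 3265 and 4007 in Ncoa5+/-Tip30+/- livers, 3395, 3778, 3619.8 and 2980.3 in Ncoa5+/- livers, 4328, 4793, 3832 and 4171 in Tip30+/- livers and 3129, 3020.3, 4899 and 5039 in wild-type livers. Its wild-type mice fell into a low pair (mice 1 and 2, which are low in Zhx2) and a high pair (mice 3 and 4), and the other groups overlapped them. The change with the Ncoa5 deletion was -0.16 (adjusted p = 0.392). Within each liver the Mbl2 to Mbl1 ratio, per kilobase, ran from 5.88 to 9.36 in Ncoa5+/-Tip30+/-, 7.08 to 8.91 in Ncoa5+/-, 4.2 to 5.43 in Tip30+/- and 3.89 to 7.98 in wild-type livers.

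The proteases that bind these lectins, Masp1 and Masp2, were lower in the groups with the Ncoa5 deletion without passing the test. Masp1 had 4791, 4224, 5346 and 5304 in Ncoa5+/-Tip30+/- livers, 5210.4, 5113, 6031 and 4949.6 in Ncoa5+/- livers, 6461, 5936, 5879.9 and 6132 in Tip30+/- livers and 6639.9, 5725, 5351 and 5809 in wild-type livers. The highest Ncoa5+/-Tip30+/- mouse, at 5346, lay just under the lowest wild-type mouse, at 5351. The log2 difference was -0.26 ± 0.10 in Ncoa5+/-Tip30+/- livers (adjusted p = 0.148) and -0.23 with the Ncoa5 deletion (adjusted p = 0.058). Masp2, the protease that cleaves C4 and C2, had the lowest residual SD of the 42 and differed by -0.17 (adjusted p = 0.0719) with the Ncoa5 deletion. C1s1, a protease of the C1 complex, averaged 4970.2 ± 574 in Ncoa5+/-Tip30+/- and 5299 ± 812 in wild-type livers (SD, n = 4 each).

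C3, which the convertases cleave and which lies at GRCm38 chromosome 17, 57203970 to 57228136 on the minus strand, had 231569, 157730.4, 270257 and 267640.0 normalized counts in the Ncoa5+/-Tip30+/- livers. It had 363004, 274565, 289874 and 310011 in Ncoa5+/- livers and 308397, 287901, 290767 and 349223 in Tip30+/- livers. The wild-type livers had 432181, 360046, 294391 and 353776. All 4 Ncoa5+/-Tip30+/- mice lay below the lowest wild-type mouse, mouse 2 by the widest margin, and both single heterozygotes overlapped wild type. The mean was 231799 ± 52439.9 in Ncoa5+/-Tip30+/- and 360098 ± 56431 in wild-type livers (SD, n = 4 each), a log2 change of -0.65 ± 0.17 (SE; 95% interval -1.01 to -0.30; adjusted p = 0.0472, limma). In Ncoa5+/- livers the difference was -0.21 (adjusted p = 0.738) and in Tip30+/- livers -0.21 (adjusted p = 0.818).

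The C3 call was close to the threshold. It held in 9 of 26 alternative settings, with the same sign in all 26, a log2 change of -0.75 to -0.48 and adjusted p from 0.00563 (DESeq2) to 0.219 (without the livers low in Zhx2, -0.51). When single mice were left out it held without Ncoa5+/-Tip30+/- mouse 4, Ncoa5+/- mouse 1 or wild-type mouse 3 and was lost without any of the other 13, with the highest adjusted p without Ncoa5+/-Tip30+/- mouse 2, at -0.48 (adjusted p = 0.164). Mice numbered under 4300 gave -1.05 and those above it -0.26, with 2 mice per group in each. The wild-type mice under 4300 were mice 1 and 2, both low in Zhx2, and Ncoa5+/-Tip30+/- mouse 2 was also numbered under 4300. The change with both deletions was not past the sum of the single ones by the test of the interaction, at -0.23 ± 0.24 (adjusted p = 0.954).

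Cell type markers in the same livers are given beside this result. The summed hepatocyte markers ran from 2673819.7 to 3375694 in Ncoa5+/-Tip30+/- and from 2870596 to 4089599.6 in wild-type livers, with 0 of 11 tested genes called. Cholangiocyte markers, 6 of 7 tested and Spp1 called (log2 1.20, adjusted p = 0.0137), summed to 1080.1 to 2117 in Ncoa5+/-Tip30+/- and 603 to 924 in wild-type livers. Lymphocyte markers, 7 of 8 tested and Cd8a called (log2 2.97, adjusted p = 0.00651), summed to 153 to 294 in Ncoa5+/-Tip30+/- and 50.7 to 212 in wild-type livers. Red cell markers, 4 of 5 matched and Alas2 called (log2 0.96, adjusted p = 0.0342), summed to 19119.6 to 67379 in Ncoa5+/-Tip30+/- and 11674 to 38426 in wild-type livers. No marker was at 0 in every liver. Their part in the C3 result was not tested.

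The genes of the convertases that cleave C3 gave no call in any of the 6 comparisons. C4b, whose product joins C2 in the classical convertase, had 35847, 33209.8, 49320.0 and 41782 in Ncoa5+/-Tip30+/- livers and 51564, 38372, 41326 and 39550.2 in Ncoa5+/- livers. It had 45571, 41425, 36999 and 41389.6 in Tip30+/- and 38375, 35711, 46578 and 42561 in wild-type livers. The groups overlapped, and the log2 difference in Ncoa5+/-Tip30+/- livers was -0.04 (95% interval -0.33 to 0.25, adjusted p = 0.906). C2 had 314, 354, 263 and 270.2 in Ncoa5+/-Tip30+/-, 297, 244, 213 and 314 in Ncoa5+/-, 299, 274, 310.2 and 298 in Tip30+/- and 327, 317, 355 and 312 in wild-type livers. All Tip30+/- mice lay just below all wild-type mice, with a log2 difference of -0.15 (adjusted p = 0.837). The Ncoa5+/- difference was -0.31 (adjusted p = 0.412).

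Cfb, the protease of the alternative convertase, was the least abundant gene of the 42 and among the most variable. It had 46.4, 30.1, 72.8 and 70.1 normalized counts in Ncoa5+/-Tip30+/- livers and 40.5, 49.9, 66.6 and 87.7 in Ncoa5+/- livers. It had 109, 101, 73.9 and 109 in Tip30+/- and 90.004, 44.2, 53.4 and 79.1 in wild-type livers. The Tip30+/- mice were mostly high and Ncoa5+/-Tip30+/- mouse 2 was the lowest of all, with the groups overlapping. The log2 differences were -0.30 (adjusted p = 0.59), -0.12 (adjusted p = 0.941) and 0.59 (adjusted p = 0.711) in Ncoa5+/-Tip30+/-, Ncoa5+/- and Tip30+/- livers, and the interaction was -0.77 (adjusted p = 0.95) with an interval of -1.68 to 0.14.

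Of the 5 terminal pathway genes none passed in any of the 6 comparisons. C9, whose product forms the pore, came nearest. It had 1924, 1874, 2013 and 2112 in Ncoa5+/-Tip30+/- livers, 3323, 2669, 1948 and 2674 in Ncoa5+/- livers, 2674, 2372, 3087 and 3467 in Tip30+/- livers and 3119, 2241, 2658 and 2947 in wild-type livers. The Ncoa5+/-Tip30+/- mice were tightly grouped and below every wild-type mouse and every Tip30+/- mouse, and Ncoa5+/- mouse 3 was as low as they were. The log2 difference was -0.46 ± 0.15 in Ncoa5+/-Tip30+/- livers (adjusted p = 0.0948) and the interaction -0.48 (unadjusted p = 0.0387, adjusted p = 0.95). With the Ncoa5 deletion C9 differed by -0.30 (adjusted p = 0.0882). DESeq2 put the adjusted p in Ncoa5+/-Tip30+/- livers at 0.0496.

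The 3 chains of C8, products of separate genes that assemble into 1 protein, did not keep a fixed ratio. Per kilobase, C8a over C8g ran from 0.103 in wild-type mouse 3 to 0.473 in Ncoa5+/- mouse 1, a 4.61-fold span, and C8a over C8b spanned 2.52-fold. In log2 differences C8a had 0.40 (adjusted p = 0.513) and C8g -0.36 (adjusted p = 0.527) in Ncoa5+/- livers, and -0.39 (adjusted p = 0.288) and 0.36 (adjusted p = 0.284) with the Tip30 deletion over both Ncoa5 backgrounds. C8g was low in the 4 livers low in Zhx2, at 6987 to 8851, with the other 12 from 9507 to 15873. Without those 4 livers C8g in Ncoa5+/- livers gave -0.51 (adjusted p = 0.266). C6 averaged 217 ± 85.8 in Ncoa5+/-Tip30+/-, 268 ± 78.6 in Ncoa5+/-, 183 ± 68.1 in Tip30+/- and 186 ± 49 in wild-type livers (SD, n = 4 each), and C8b 1804 ± 395 in Ncoa5+/-Tip30+/- and 2397 ± 643 in wild-type livers.

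Among the 6 regulators none passed. Cfp (properdin, which stabilises the alternative convertase) had 544, 1178, 901 and 693 in Ncoa5+/-Tip30+/- livers and 608, 756, 1161 and 922 in Ncoa5+/- livers. It had 691, 591, 696 and 621 in Tip30+/- and 673, 636, 659 and 284 in wild-type livers, mouse 4 being the lowest of all 16. The log2 differences were 0.58 (adjusted p = 0.242) in Ncoa5+/-Tip30+/- and 0.65 (adjusted p = 0.425) in Ncoa5+/- livers. The 12 Kupffer cell and macrophage markers, all tested and none called, summed to 9834 to 18993 in Ncoa5+/-Tip30+/-, 12196 to 22666 in Ncoa5+/-, 10859 to 13745 in Tip30+/- and 5633 to 13376 in wild-type livers. C1qa, a C1q chain of macrophages, had a log2 difference of 0.53 (adjusted p = 0.0677) with the Ncoa5 deletion. The part of these cells in the Cfp values was not tested.

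C4bp (C4b-binding protein) differed by 0.33 (adjusted p = 0.246) in Ncoa5+/- livers, the smallest adjusted p of the 42 there, and Cfi (factor I, the protease that inactivates C3b) by 0.31 (adjusted p = 0.395). In Ncoa5+/-Tip30+/- livers the same genes gave 0.18 (adjusted p = 0.364) and 0.03 (adjusted p = 0.915). Serping1 (C1 inhibitor), Vtn (vitronectin) and Clu (clusterin) gave -0.20, -0.14 and -0.14 in Ncoa5+/-Tip30+/- livers, with adjusted p of 0.38, 0.474 and 0.523. Vtn was next to C3 in level among the complement genes and its highest liver was 1.29 times its lowest.

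None of the 22 coagulation genes passed in any of the 6 comparisons in limma, while 5, 0, 0, 2, 0 and 1 had an unadjusted p under 0.05 in Ncoa5+/-Tip30+/-, Ncoa5+/- and Tip30+/- livers against wild type, with the Ncoa5 deletion, with the Tip30 deletion and in the interaction. Of all tested genes 3364 of 15263, 10.2%, 7.34%, 26.1%, 11.8% and 4.26% did so, in the same order. The coagulation counts were near or below these shares. DESeq2 called Plg in Ncoa5+/-Tip30+/- livers and with the Ncoa5 deletion, and edgeR called none. The 3 fibrinogen genes, whose chains make the clot protein, varied widely from mouse to mouse. Fga had 83453, 58918, 115753 and 99959 in Ncoa5+/-Tip30+/- livers, 112702, 85434, 120798 and 106211 in Ncoa5+/- livers, 107998, 117141, 76674 and 96787 in Tip30+/- livers and 106573, 113282, 88149 and 134439 in wild-type livers. Ncoa5+/-Tip30+/- mouse 2 was the lowest and wild-type mouse 4 the highest of all 16, and the groups overlapped.

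Fgb had 65052, 58409.7, 90315 and 82589.5 in Ncoa5+/-Tip30+/- and 84801, 66623, 97414 and 92572 in Ncoa5+/- livers. It had 86552, 103926, 64838 and 79316 in Tip30+/- and 80340.1, 84272, 73898 and 120949 in wild-type livers. Fgg had 55278, 48829, 71944 and 66178 in Ncoa5+/-Tip30+/-, 71448, 52948, 75349 and 72219 in Ncoa5+/-, 63599, 77458, 51964 and 59718 in Tip30+/- and 61428, 66701, 58167 and 94135 in wild-type livers. Both followed Fga, low in the same mice and high in wild-type mouse 4. The log2 differences in Ncoa5+/-Tip30+/- livers were -0.33 ± 0.20, -0.27 ± 0.19 and -0.20 ± 0.17 for Fga, Fgb and Fgg (adjusted p = 0.329, 0.406 and 0.521), and in Ncoa5+/- and Tip30+/- livers they lay between -0.15 and -0.03.

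The chains kept close proportions within a liver. Per kilobase, Fgb over Fgg ran only from 0.646 to 0.748 over the 16 livers, a 1.16-fold span, while the Fgb level itself spanned 2.07-fold. Fga over Fgg ran from 0.839 to 1.21, with Ncoa5+/-Tip30+/- mouse 2 lowest. The 3 genes are neighbours on chromosome 3. The promoter windows printed above share the HNF1, C/EBP and STAT letters in Fga and Fgb and hold none of them in Fgg.

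Of the 6 vitamin K-dependent genes, F7 (factor VII, which starts clotting with tissue factor) was below every wild-type mouse in all Ncoa5+/-Tip30+/- and all Tip30+/- mice. Taken 1 comparison at a time, 916 and 372 of all 15263 tested genes were lower in this way. The share that was lower in both is not given. It had 4381, 4045, 4540.3 and 4234 in Ncoa5+/-Tip30+/- livers, 5904, 4248, 3919 and 4148 in Ncoa5+/- livers, 4531, 4461, 4762 and 4881 in Tip30+/- livers and 5067, 5243, 5317 and 4928 in wild-type livers. In Ncoa5+/- livers 3 mice were below the wild-type range, and also below every Tip30+/- mouse, and mouse 1 was above it. The log2 differences were -0.26 ± 0.11 (adjusted p = 0.179), -0.19 ± 0.11 (0.587) and -0.14 ± 0.11 (0.807) in Ncoa5+/-Tip30+/-, Ncoa5+/- and Tip30+/- livers. Averaged over backgrounds, F7 differed by -0.15 ± 0.08 with the Ncoa5 deletion (adjusted p = 0.215) and by -0.10 with the Tip30 deletion. Neither average passed.

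F2 (prothrombin) had 66678, 56496, 67564 and 60291 in Ncoa5+/-Tip30+/- and 81148, 61974, 70509.7 and 75646 in Ncoa5+/- livers. It had 71468, 71613, 71270.0 and 73830.2 in Tip30+/- and 71777, 63251, 66821 and 75849 in wild-type livers, so the groups overlapped and the Tip30+/- mice were closest to each other. The difference in Ncoa5+/-Tip30+/- livers was -0.15 (95% interval -0.38 to 0.08, adjusted p = 0.446). Pros1 (protein S, cofactor of protein C) had 695, 803, 848 and 902 in Ncoa5+/-Tip30+/-, 1035, 719, 944 and 1123 in Ncoa5+/-, 844, 1018, 1024 and 1143 in Tip30+/- and 1233, 949.6, 959.6 and 910.0 in wild-type livers. Every Ncoa5+/-Tip30+/- mouse was below every wild-type mouse by a narrow margin, with a log2 difference of -0.31 ± 0.14 (adjusted p = 0.203).

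F9 (factor IX), F10 (factor X) and Proc (protein C, an anticoagulant protease) gave -0.26 (adjusted p = 0.236), -0.02 (adjusted p = 0.945) and 0.22 (adjusted p = 0.276) in Ncoa5+/-Tip30+/- livers. F9 and C4bp had unadjusted p of 0.0494 and 0.0482 in the interaction, with adjusted p of 0.95 for both. Proc was low in wild-type mice 1 and 2, at 14984 and 13261, against 19109 and 19602 in mice 3 and 4. Without the livers low in Zhx2 its difference in Ncoa5+/-Tip30+/- livers was -0.01 (adjusted p = 0.984).

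The enzyme that carboxylates these factors passed the test. Ggcx, the vitamin K-dependent gamma-carboxylase, had 2283, 1831, 2375 and 2269 normalized counts in Ncoa5+/-Tip30+/- livers and 2449, 2180.2, 2325 and 2359 in Ncoa5+/- livers. It had 2762, 2377, 2439.6 and 2914 in Tip30+/- and 3102, 3168, 2911 and 2748 in wild-type livers. All Ncoa5+/-Tip30+/- and all Ncoa5+/- mice lay below all wild-type mice, and Tip30+/- overlapped them. Ggcx fell by 0.45 ± 0.10 on the log2 scale in Ncoa5+/-Tip30+/- livers (adjusted p = 0.0254) and by 0.31 ± 0.07 with the Ncoa5 deletion (adjusted p = 0.0152). The call held in 21 of 26 alternative settings in Ncoa5+/-Tip30+/- livers and in 24 of 25 with the Ncoa5 deletion, and was lost in both without the livers low in Zhx2, at adjusted p of 0.176 and 0.0879. In Ncoa5+/-Tip30+/- livers it was also lost in the fit of these groups alone (0.110) and without Ncoa5+/-Tip30+/- mouse 2 (0.0929), wild-type mouse 1 (0.0830) or wild-type mouse 2 (0.0640).

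Ggcx was the only 1 of 18 tested further coagulation genes (21 listed) that passed. The next by p in Ncoa5+/-Tip30+/- livers was Lman1, a cargo receptor that carries factors V and VIII out of the endoplasmic reticulum, at -0.41 (adjusted p = 0.0768). Of 23 tested further complement genes (27 listed) none passed in any comparison; the smallest p in Ncoa5+/-Tip30+/- livers belonged to Cd59a, an inhibitor of the membrane attack complex, at 0.41 (adjusted p = 0.077). Of 15 hepatocyte transcription factors none passed, with Hnf4a at -0.39 (adjusted p = 0.201) and Cebpa at -0.29 (adjusted p = 0.256) in Ncoa5+/-Tip30+/- livers. Of 20 acute phase genes, Itih3, an inter-alpha-trypsin inhibitor heavy chain, fell in Ncoa5+/-Tip30+/- livers (-0.70, adjusted p = 0.0473; 0.199 without the livers low in Zhx2). Apcs, serum amyloid P, rose with the Ncoa5 deletion (0.37, adjusted p = 0.0428; 0.0840 without them).

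F5 (factor V, cofactor of factor X) and F13b (carrier subunit of factor XIII) gave -0.02 (adjusted p = 0.953) and -0.29 (adjusted p = 0.279) in Ncoa5+/-Tip30+/- livers. In the contact system, F11 (factor XI) had 1484, 1912, 3121 and 2298 in Ncoa5+/-Tip30+/- livers and 2511, 1814, 2697 and 3372 in Ncoa5+/- livers. It had 2499, 2666, 1515 and 2079 in Tip30+/- and 2264, 2144, 2083 and 2905 in wild-type livers. The values spread over more than the differences between groups, and the difference in Ncoa5+/-Tip30+/- livers was -0.13 (95% interval -0.62 to 0.35, adjusted p = 0.778). F12 (factor XII), Klkb1 (plasma prekallikrein), Kng1 and Kng2 (kininogens) gave -0.03, -0.02, 0.16 and 0.14 in Ncoa5+/-Tip30+/- livers, with adjusted p from 0.407 to 0.954.

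Klkb1 and Apoh were low in wild-type mice 1 and 2, as Mbl1, C8g and Proc were. Klkb1 had 3562, 3369, 5373 and 6311 and Apoh 53137, 49807, 66133 and 79358 in the 4 wild-type livers. Without the livers low in Zhx2 the difference of Apoh in Ncoa5+/-Tip30+/- livers was -0.29 (adjusted p = 0.292), where all livers gave -0.04, and that of Klkb1 was -0.40 (adjusted p = 0.221), where all gave -0.02.

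Plg (plasminogen, the precursor of the clot-dissolving protease plasmin) had 62786, 51982, 66066 and 67419 in Ncoa5+/-Tip30+/- livers, 79992, 61202, 72039 and 74967 in Ncoa5+/- livers, 81841, 82831, 74337 and 84696 in Tip30+/- livers and 77009.9, 67946, 83704 and 93515 in wild-type livers. All Ncoa5+/-Tip30+/- mice lay below all wild-type mice and all Tip30+/- mice. The log2 difference was -0.37 ± 0.13 in Ncoa5+/-Tip30+/- livers (adjusted p = 0.101) and -0.27 ± 0.09 with the Ncoa5 deletion (adjusted p = 0.067). DESeq2 gave adjusted p of 0.0356 and 0.0200, and without the livers low in Zhx2 limma gave 0.0405 for the Ncoa5 deletion, with Plg at -0.40.

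Serpinf2 (alpha-2-antiplasmin, the inhibitor of plasmin) averaged 21572 ± 5009 in Ncoa5+/-Tip30+/-, 24313 ± 3602 in Ncoa5+/-, 27717 ± 1769.6 in Tip30+/- and 30401 ± 6576 in wild-type livers (SD, n = 4 each). Its difference in Ncoa5+/-Tip30+/- livers, -0.50 ± 0.18, was the largest of the coagulation genes (adjusted p = 0.112). With the range of mouse numbers as a covariate it passed, at an adjusted p of 0.0205. With the Ncoa5 deletion Serpinf2 differed by -0.35 ± 0.12 (adjusted p = 0.0875). Wild-type mouse 1, low in Zhx2, lay within the range of the Ncoa5+/-Tip30+/- livers, and the other 3 wild-type mice lay above it.

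Serpind1 (heparin cofactor II, a thrombin inhibitor) had 12332, 9310.0, 11925 and 10859 in Ncoa5+/-Tip30+/- and 14203, 11652, 13222 and 12913 in Ncoa5+/- livers. It had 11898, 11827, 14012 and 14405 in Tip30+/- and 13629.5, 12482, 12557 and 14316 in wild-type livers. All Ncoa5+/-Tip30+/- mice were below the wild-type mice, the margin being narrow, with a log2 difference of -0.26 ± 0.11 (adjusted p = 0.181). Serpinc1 (antithrombin) had 67554, 59581, 59743 and 57746 in Ncoa5+/-Tip30+/-, 73421, 57777, 68651 and 60476 in Ncoa5+/-, 71209, 71693, 75019 and 75971 in Tip30+/- and 68384, 59556, 66245 and 74577 in wild-type livers. The groups overlapped and the difference in Ncoa5+/-Tip30+/- livers was -0.13 (95% interval -0.36 to 0.09, adjusted p = 0.488). Cpb2 (the thrombin-activatable inhibitor of fibrinolysis) gave 0.02 (adjusted p = 0.946).

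**Figure D4:**
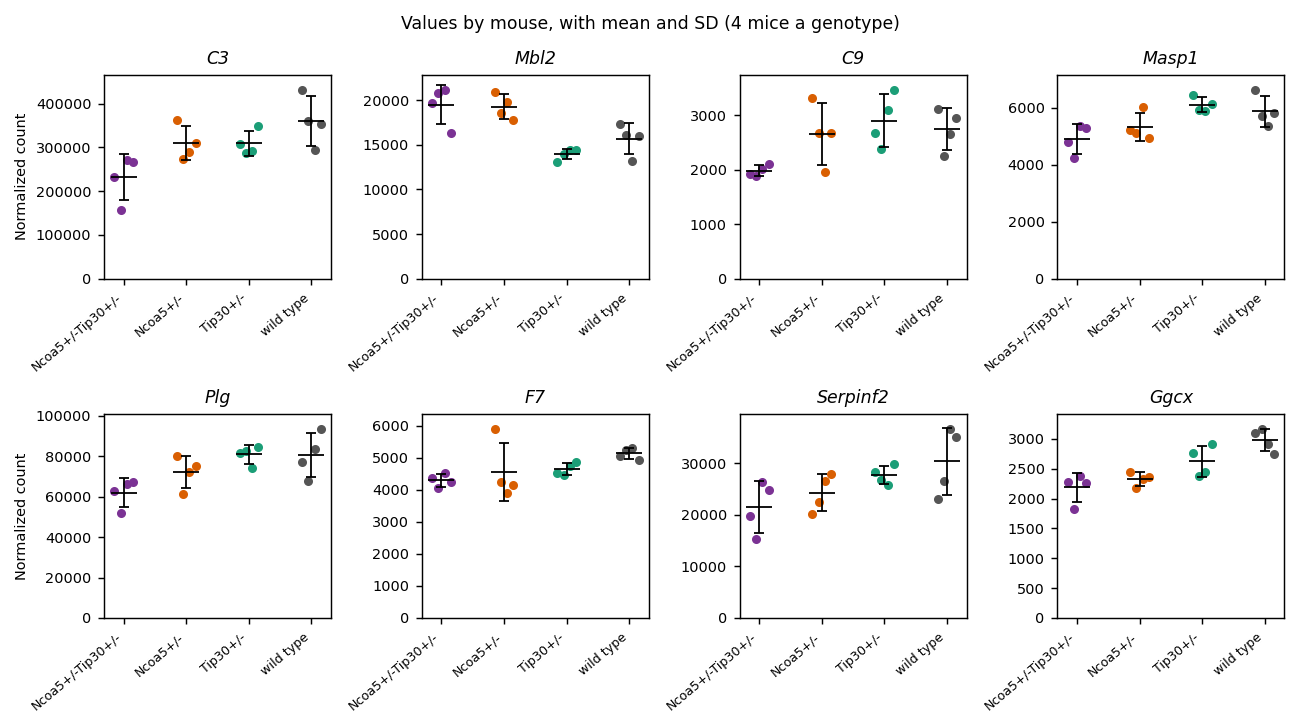
Normalized counts per mouse (points) with the mean and SD (bars) of 4 mice in Ncoa5+/-Tip30+/-, Ncoa5+/-, Tip30+/- and wild-type livers, for C3, Mbl2, C9, Masp1, Plg, F7, Serpinf2 and the carboxylase gene Ggcx; each axis starts at 0. C3 in Ncoa5+/-Tip30+/- livers lies between 157730 and 270257, below all wild-type livers, and Mbl2 in Ncoa5+/- livers lies above all wild-type livers.

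With the Ncoa5 deletion averaged over both Tip30 backgrounds, 8 complement and 2 coagulation genes had an unadjusted p under 0.05, or 10 of 42, beside 26.1% of all tested genes, and 28 of 42 differences were below 0. With the Tip30 deletion averaged over both Ncoa5 backgrounds none of the 42 passed (0.131% of all genes did), 3 had an unadjusted p under 0.05 (C3, C8a and C8g, beside 11.8% of all) and DESeq2 and edgeR called none. In that average C3 had -0.33 ± 0.12 (adjusted p = 0.294). With the Ncoa5 deletion C3 differed by as much, -0.33 ± 0.12, with a smaller adjusted p (0.0946) that did not pass either. The interaction, the Ncoa5+/-Tip30+/- value minus both single heterozygotes plus wild type, gave 0 calls among the 42 and 0 among all genes (0.00%), with 3 of 42 at an unadjusted p under 0.05 beside 4.26% of all; DESeq2 called 1 gene in all and none of the 42. The interaction was below 0 for 36 of 42 genes, 16 complement and 20 coagulation, beside 54.6% of all tested genes. Its median was -0.17 for the 42 genes, beside -0.28 for hepatocyte markers and -0.17 for hepatocyte transcription factors. Further complement genes had -0.18, further coagulation genes -0.22 and acute phase genes -0.13. Markers of other cell types had medians from -0.57 to 0.60. Without the livers low in Zhx2 the interaction was below 0 for 12 of 20 complement and 11 of 22 coagulation genes.

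A single mouse carried much of the low end. Ncoa5+/-Tip30+/- mouse 2 had the lowest value of all 16 livers in 20 of the 42 genes, 10 of each list, among them C3, C9, Fga, Fgb, Fgg, F2, Plg and Serpinf2, and the highest in 1, Cfp. Its library had 29556978 reads and 4.68% mitochondrial reads, within the range of the others (3.42% to 5.80%). Ncoa5+/- mouse 1 was the highest in 12 genes, 6 of each list, and wild-type mouse 4 in 10, of which 7 were coagulation genes. The shares of all tested genes in which these mice were lowest or highest are not given, so the counts do not single out these genes. Over all genes, leaving out Ncoa5+/-Tip30+/- mouse 2 took the calls in Ncoa5+/-Tip30+/- livers from 407 to 88. Without Ncoa5+/-Tip30+/- mouse 2 the medians in Ncoa5+/-Tip30+/- livers were -0.05 for complement and -0.10 for coagulation genes, where all mice gave -0.11 and -0.14.

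Apart from genotype, the coagulation genes varied together more than the complement genes. After the mean of each genotype was subtracted from the log2 values, the median Pearson r over the 16 livers was 0.50 for the 231 pairs of coagulation genes, 0.16 for the 190 pairs of complement genes and 0.30 for the 440 pairs across the lists. These are descriptions: all pairs share the libraries, their depth and their scaling. The closest pair was Fgb and Fgg (r = 0.99), followed by Klkb1 and Apoh (0.93), F5 and F13b (0.92), Fga and Fgb (0.92) and Cfi and F2 (0.91). Serping1 varied with Plg (0.89) across the lists.

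Genes whose products act in 1 complex did not always vary together. C8a and C8b had r = 0.68, but C8a and C8g -0.60, and Mbl1 went with C8g (0.88) and not with Mbl2 (-0.40). Masp1 and C2 had the lowest r of all pairs (-0.72). The 12 pairs within 500 kilobases of each other on a chromosome had a median r of 0.60, from -0.40 for C2 and Cfb, which share annotated exons with Gm20547, to 0.99 for Fgb and Fgg. F7 and F10, neighbours on chromosome 8, had 0.78, Kng1 and Kng2 0.87, and the neighbours F11 and Klkb1 0.29.

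**Figure D5:**
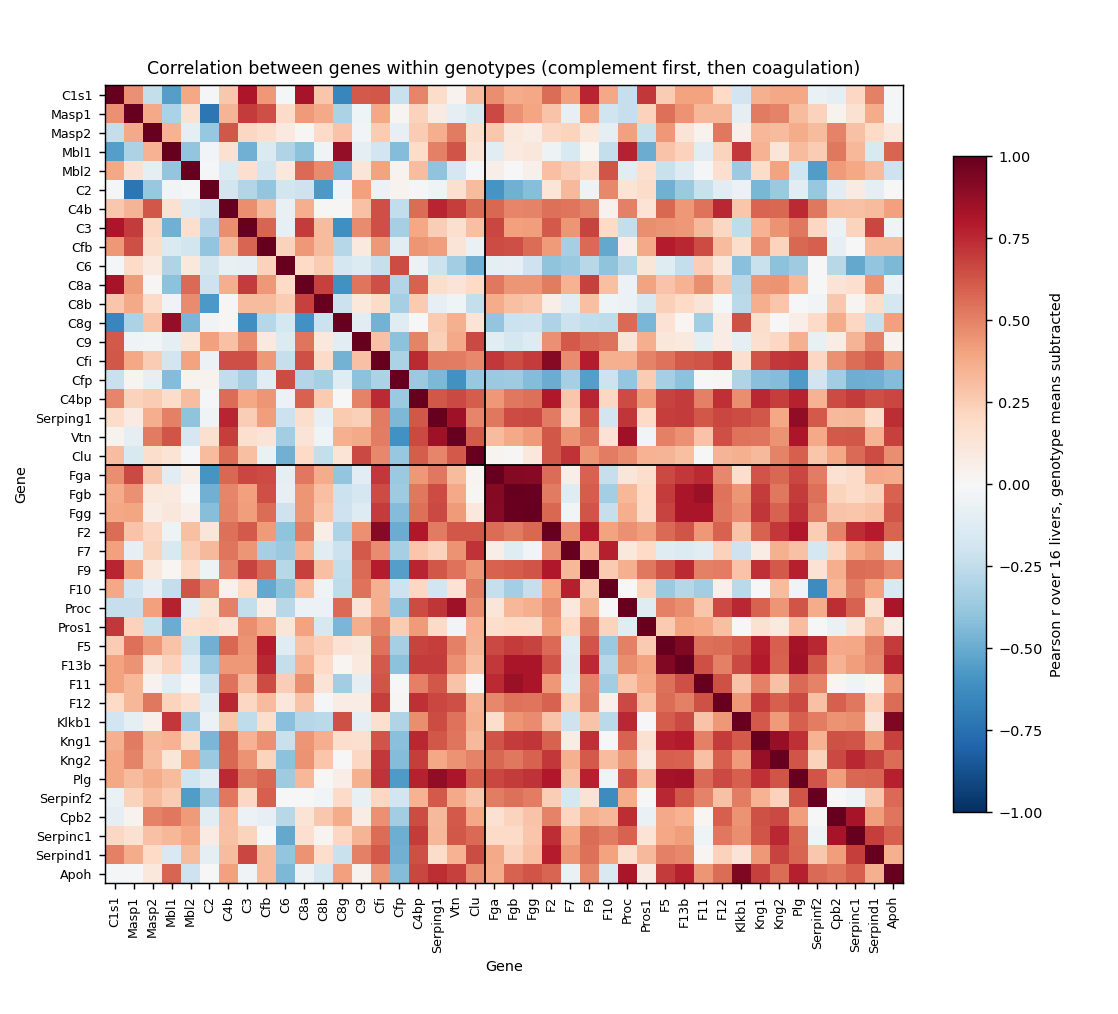
Pearson r between the 42 genes over 16 livers after subtracting genotype means, from blue (-1) to red (1), with complement genes first and coagulation genes after the line. The coagulation block is mostly red (median 0.50), with the fibrinogen chains above 0.9, while the complement block is mixed (median 0.16).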

How the data were processed

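Liver RNA of 16 mice was sequenced from oligo(dT)-selected libraries. Per the submitters' processing notes, the tools were Trimmomatic 0.36, STAR 2.6.0c and DESeq2 1.28.1, with build GRCm38. The sources used here give no counting program, gene annotation or mouse strain. The deposited signal values are read counts that the authors divided by DESeq2 size factors. Whole reads were recovered from them: 100% of values were whole multiples of the value of 1 read within a tolerance of 1e-04. Counts per library were 24740706 to 37939978. Counting error was not separated from the spread between mice, and it weighs most on low genes such as Cfb, with 32 reads in its lowest library.

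Values were analysed as log2(normalized count + 1), so fold changes of low genes are understated. Genes averaging 10 or more were fitted with limma 3.58.1 in R 4.3.3, all 4 genotypes in 1 model, with Benjamini-Hochberg adjustment over 15263 genes and a threshold of 0.05. Comparisons were each heterozygote against wild type, the average effect of each deletion, and their interaction. Every adjusted p is from limma unless another tool is named. The exact permutation test over mice was 2-sided. Alternatives were other pseudocounts, filters and TMM scaling, DESeq2 1.42.0 and edgeR 4.0.16 on recovered reads, a covariate for mouse numbers under 4300, the groups of a comparison alone, each mouse left out, and, chosen after seeing the data, the 4 livers low in Zhx2 left out. The fits were tested on simulated data. Gene positions and exon lengths are from GENCODE M21 and promoters from RefSeq (GRCm38.p6). The labels do not say how the mice were related by litter, and the p-values set each difference against the spread between these mice.

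The 42 genes and the other gene lists were chosen with earlier results of these data known. Full values are given for genes with an adjusted p under 0.05 in any comparison, for genes whose heterozygous mice all lay above or below all wild-type mice, and for C3, C4b, Cfb, C9, Mbl1, Mbl2, Fga, Fgb, Fgg, F2, F7, F11 and Serpinc1; from other lists, those that passed, or the smallest p, with 1 gene not reported here. Neutrophil, sinusoidal endothelial and platelet markers were also tested, and none of them passed in any comparison.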

Additional observations from a re-analysis of the deposited data

Results flagged for a closer look

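In 9 of the 168 groups of 4 mice (42 genes in 4 genotypes) 1 mouse lay far from the others of its genotype by Dixon's test. Chance alone flags about 1 in 20 such groups. In Ncoa5+/-Tip30+/- livers, C4bp was 10773 normalized counts in mouse 3, where the others were 9219 to 9351, and Proc was 17893 normalized counts in mouse 4, where the others were 19725 to 19770.5. In Ncoa5+/- livers, mouse 1 was the high one for both F7, at 5904 normalized counts in mouse 1, where the others were 3919 to 4248, and F10, at 28970.2 normalized counts in mouse 1, where the others were 19635 to 20560.4, which are neighbouring genes. In Tip30+/- livers, Masp2 was 3385 normalized counts in mouse 3, where the others were 3676 to 3720.5, C8g was 13763 normalized counts in mouse 3, where the others were 13004 to 13043, and F2 was 73830.2 normalized counts in mouse 4, where the others were 71270.0 to 71613. In wild-type livers, Cfp was 284 normalized counts in mouse 4, where the others were 636 to 673, and Pros1 was 1233 normalized counts in mouse 1, where the others were 910.0 to 959.6.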

How the results depend on the processing

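For the complement genes in Ncoa5+/-Tip30+/- livers against wild type, 1 gene passed, and the count was 0 with TMM scaling, with edgeR, without the 4 livers low in Zhx2 and in the fit of this pair of groups, 3 with DESeq2 (C9, C3 and Mbl2), and 0 to 2 when single mice were left out. For the coagulation genes there, the count was 0, and 1 with DESeq2 (Plg) and 1 with the mouse number covariate (Serpinf2). With the Ncoa5 deletion 1 complement gene passed, 3 with DESeq2 (Masp1, Mbl2 and Masp2), 2 with the covariate (Masp1 and Mbl2) and 1 to 2 when single mice were left out. The coagulation count there was 0, 1 with DESeq2 (Plg), 2 with the covariate (Serpinf2 and Plg), 1 without the livers low in Zhx2 (Plg) and 0 to 1 when single mice were left out, the 1 being F7 without Ncoa5+/- mouse 1 (log2 -0.22, adjusted p = 0.0366) or Plg without wild-type mouse 2. The causes were not tested. The counts of the other comparisons were 0 in every alternative run.

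Over all genes, 407 passed in Ncoa5+/-Tip30+/- livers, 1084 with DESeq2, 697 with the covariate, 121 without the livers low in Zhx2 and 107 in the fit of these groups alone. Leaving out single mice gave 88 without Ncoa5+/-Tip30+/- mouse 2, 108 without wild-type mouse 1, 167 without wild-type mouse 4, 196 without Ncoa5+/-Tip30+/- mouse 3, 216 without wild-type mouse 2, 651 without Ncoa5+/-Tip30+/- mouse 4 and 846 without wild-type mouse 3. With the Ncoa5 deletion 1205 passed, 1902 with DESeq2, 1937 with the covariate and 602 without the livers low in Zhx2. It was 610 without Ncoa5+/-Tip30+/- mouse 2, 662 and 767 without wild-type mice 4 and 1, 703 and 783 without Ncoa5+/- mice 4 and 2, and 707, 747 and 772 without Tip30+/- mice 4, 2 and 3. In Ncoa5+/- livers 85 passed, 251 with DESeq2, 29 without the livers low in Zhx2 and 56 in the fit of the groups alone, and 45, 56, 47 and 53 without Ncoa5+/- mice 1 and 4 and wild-type mice 3 and 4. In Tip30+/- livers 2 passed, 43 with DESeq2, 6 without the livers low in Zhx2 and 1 to 8 when single mice were left out. With the Tip30 deletion 20 passed, 243 with DESeq2, 51 with the covariate, 34 with no filter, 5 without the livers low in Zhx2, 114 without wild-type mouse 3, and 39 and 35 without Ncoa5+/- mice 3 and 2.

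No paired analysis was possible because the labels give each mouse its own number and no replicate number shared between genotypes. TMM scaling shifted a library by at most 0.042 on the log2 scale.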
